A study of Mus musculus with 9 samples.

Results

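The endoplasmic reticulum (ER) chaperones, the protein translocon and the genes of the unfolded protein response were examined in RAW264.7 cells, an established mouse macrophage-like line of wild-type genotype. The set was defined by a list of 37 gene symbols, of which 36 are among the 12474 rows of the files, and all 36 passed the filter on low values. The remaining symbol, Ero1l, is an older name of Ero1a, which is in the files under that newer name and is given beside the set without being counted in it. Poly(A)-selected RNA was sequenced in 9 libraries, 3 per group, all of wild-type cells kept in DMEM with serum. Mock cells were the untreated control. M1 cells received lipopolysaccharide (LPS) at 100 ng/ml with mouse interferon gamma at 50 ng/ml, which drives macrophages into a pro-inflammatory state. I cells received both at the same doses with potassium iodide at 20 mM. The length of treatment is not given in the sources used here. As no group received another salt, effects of iodide cannot be told apart from those of potassium or of osmolarity. Whether libraries of 1 group stem from separate cultures is not stated in the labels, and p-values here measure the spread among these libraries alone, which may be technical.

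As background, proteins destined for secretion or for membranes enter the ER through the Sec61 channel, which is assisted by the translocon-associated protein (TRAP) complex. Inside the ER they are folded by the HSP70-type chaperone BiP (Hspa5) with its DnaJ cochaperones, by GRP94 (Hsp90b1), by the lectins calnexin and calreticulin, and by protein disulfide isomerases. Proteins that fail to fold are returned to the cytosol and degraded, a route called ER-associated degradation (ERAD). When unfolded protein accumulates, the membrane sensors IRE1 (Ern1), PERK (Eif2ak3) and ATF6 start the unfolded protein response, in which ATF6 and the spliced form of XBP1 raise chaperone and ERAD genes. Macrophages use this machinery for the cytokines, surface receptors and lysosomal enzymes they make.

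Values are FPKM, fragments per exon length and library size, so levels can be compared between genes per length. Library totals recovered from the values were 17431070 to 25470730 fragments, and among the 36 genes the fewest fragments in a library were 273 (Dnajb9). Within groups, libraries correlated across genes at r = 0.9968 to 0.9973. All 10 macrophage markers looked for are in the files, and they did not move together. Lyz2, the lysozyme gene that makes up most of their sum in Mock, had means of 3155, 1138 and 675 FPKM in Mock, M1 and I, and the sums were 4941 to 5012, 3673 to 3806 and 2686 to 2816 FPKM. Means of Cd68, Itgam, Adgre1, Cd14 and Tyrobp were higher in M1 than in Mock, and for Cd14 they were 752, 1549.9 and 1326 FPKM. Those of Csf1r, Spi1 and Fcgr1 were lower in M1, with Csf1r at 343, 69.8 and 96.1 FPKM in Mock, M1 and I. Mertk, at 0.031, 0.032 and 0.29 FPKM, was too low to be tested. The part of these markers in the results below was not tested. Of 22 markers of T cells, B cells, neutrophils, fibroblasts and epithelial cells only the B cell factor Pax5 is in the files, at 0.053 FPKM or less, and the other 21 are not analysed here. In bulk RNA, fewer cells of a type and less RNA per cell cannot be told apart. Differences were tested with limma on log2(FPKM + 1) over 11156 genes, and a gene was called where its p after Benjamini-Hochberg adjustment was under 0.05. Fold changes on this scale understate the change of low genes. Over all tested genes the median log2 fold change was −0.23 in M1 against Mock and −0.065 in I against M1. Rescaling the libraries by median-of-ratios (RLE) factors moved these medians by 0.24 and 0.056, and for I against Mock by 0.29. Genes of the set moved up by 0.24 to 0.30 in M1 against Mock, by 0.063 to 0.075 in I against M1 and by 0.31 to 0.38 in I against Mock, so that falls smaller than this can turn.

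An element of ER stress promoters was found in the windows of 8 genes. The ER stress response element (ERSE) is the binding motif through which ATF6, with the CCAAT-binding factor NF-Y, acts on chaperone genes. It was searched on both strands as CCAAT, 9 bases of any kind and CCACG, in the RefSeq windows of GRCm38.p6 that run from 250 bases before to 50 bases after a start site. Windows were found for 29 of the 36 genes, 32 windows in all. The ERSE was present in 8 of those 32 windows (25.0%), and in 39 of all 32851 windows (0.119%). Among 8655 tested genes with a window 14 held it, and 8 of the 14 belong to the set. The motif was first described from chaperone promoters, so its presence there is no independent evidence. Matches are a description of letters, not of bound sites. The related ERSE-II, ATTGG, 1 base and CCACG, was present in Herpud1 and Dnajb11 and in 12 of all 32851 windows. In Dnajb11 the match begins after the start site and is not shown. The UPRE core TGACGTGG was found in Txndc5 alone among the genes of the set and in 0.676% of all windows. CCACG by itself, which is part of the ERSE and the ERSE-II, was in 71.9% of the windows of the set and in 32.8% of all windows.

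The stretches below show each match with up to 20 bases on either side, 5′ to 3′ along the gene, from RefSeq on GRCm38.p6. They are shown because the set holds these motifs at a larger share than all windows do, and start sites are those of RefSeq. In Hspa5 the match lies within the first exon of the longer GENCODE gene model, 34771970 to 34772146 on chromosome 2, and is shown with 5 bases on either side. Capitals mark the fixed bases of the motif, which read CGTGG and ATTGG where the match lies on the opposite strand.
Hspa5, chr2:34772020-34772048, plus strand: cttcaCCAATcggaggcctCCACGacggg
Calr, chr8:84847055-84847113, minus strand: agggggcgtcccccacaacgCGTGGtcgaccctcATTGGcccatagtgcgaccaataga
Herpud1, chr8:94386357-94386407, plus strand: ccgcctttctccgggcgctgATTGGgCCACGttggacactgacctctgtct
Hsp90b1 (copy farther from the start site), chr10:86705618-86705676, minus strand: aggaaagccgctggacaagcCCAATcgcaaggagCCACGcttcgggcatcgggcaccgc
Hsp90b1 (copy nearer the start site), chr10:86705513-86705571, minus strand: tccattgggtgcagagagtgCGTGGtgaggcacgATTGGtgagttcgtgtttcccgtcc
Canx, chr11:50325780-50325838, minus strand: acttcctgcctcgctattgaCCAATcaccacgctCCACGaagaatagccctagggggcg
Pdia6, chr12:17266471-17266529, plus strand: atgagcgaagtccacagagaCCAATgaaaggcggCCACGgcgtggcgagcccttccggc
Dnajc3, chr14:118937807-118937865, plus strand: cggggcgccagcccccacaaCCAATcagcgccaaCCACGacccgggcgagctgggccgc
Creld2, chr15:88819500-88819558, plus strand: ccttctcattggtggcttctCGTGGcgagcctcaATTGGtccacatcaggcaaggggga
Syvn1, chr19:6046512-6046570, plus strand: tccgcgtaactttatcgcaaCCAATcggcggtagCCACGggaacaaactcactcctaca

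For comparison, the 250 bases before the start site are shown for Canx, the calnexin gene, which has the element and was lower in M1 and in I than in Mock, and for P4hb, which had the largest rise of the set and has no match to the ERSE or the ERSE-II in its window. Both were picked with their changes known and are single examples that do not stand for the genes with or without the element. Calr and Creld2 also have it and were not called in M1 against Mock, while Txndc5 has no ERSE and fell (log2 fold change −1.31). Capitals mark the fixed ERSE bases and any CCACG in Canx and the CCACG in P4hb.
Canx, chr11:50325674-50325923, minus strand: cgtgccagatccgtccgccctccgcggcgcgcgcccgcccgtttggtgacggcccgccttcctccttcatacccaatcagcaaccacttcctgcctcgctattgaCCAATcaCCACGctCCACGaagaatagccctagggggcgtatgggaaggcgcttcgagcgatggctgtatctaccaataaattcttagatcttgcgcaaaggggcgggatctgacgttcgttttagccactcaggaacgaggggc
P4hb, chr11:120573254-120573503, minus strand: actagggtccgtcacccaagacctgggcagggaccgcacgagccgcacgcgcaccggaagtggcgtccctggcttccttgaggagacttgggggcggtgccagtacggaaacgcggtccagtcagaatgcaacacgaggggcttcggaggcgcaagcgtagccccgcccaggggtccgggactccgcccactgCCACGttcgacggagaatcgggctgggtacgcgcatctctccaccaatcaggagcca

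Most of the set was lower after polarization, with a few genes that went the other way. Of the 36 genes 28 were lower and 5 higher in M1 than in Mock, 33 called in all. Among all tested genes 85.8% were called, 55.3% lower and 30.5% higher. At least 2-fold falls were seen in 8 genes, against 16.1% of all tested genes, and 1 gene rose at least 2-fold, against 6.78%. With RLE scaling 5 genes fell and 2 rose by that much, against 10.4% of all tested genes in either direction. The median log2 fold change was −0.67 over the set and −0.23 over all tested genes. With RLE scaling 22 genes were lower and 10 higher, against 42.6% lower and 43.1% higher among all tested genes, and those 22 were among the 28. The 5 genes that rose, P4hb, Os9, Sec61g, Derl2 and Ern1, were called higher under both scalings. The 3 libraries of M1 did not overlap with those of Mock for 33 of the 36 genes, against 86.4% of all tested genes.

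**Figure D1:**
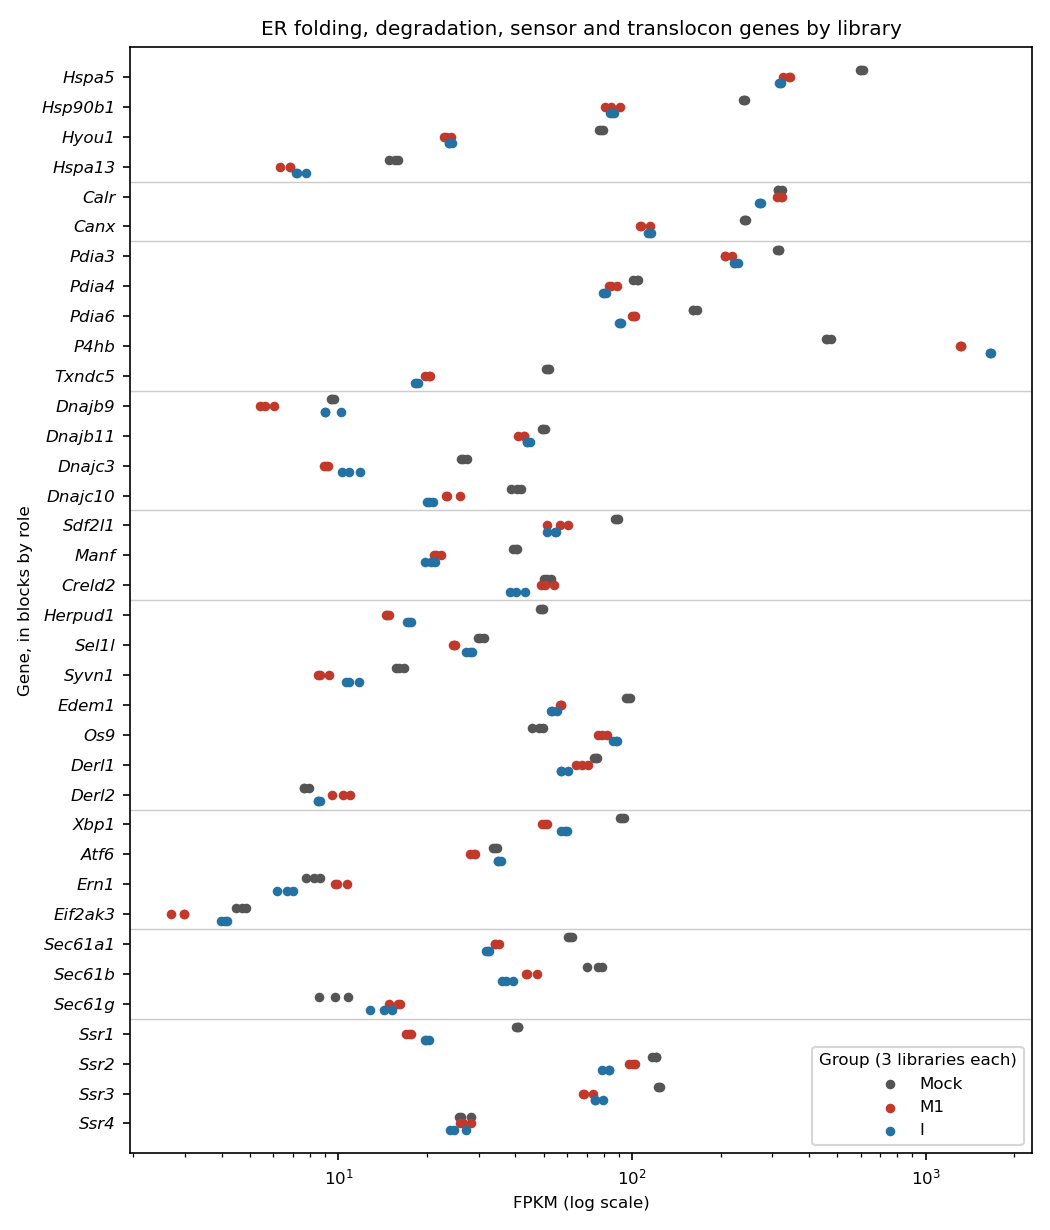
FPKM (log scale) of the 36 genes in each library, in blocks by role from top to bottom (HSP70 and HSP90 family, lectins, disulfide isomerases, DnaJ cochaperones, small lumenal proteins, ERAD, sensors and factors, Sec61 channel, TRAP complex), with 3 points per group. Most Mock points lie to the right of the M1 and I points, while P4hb, at 457 to 475 FPKM in Mock and 1651 to 1668 in I, goes the other way.

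With potassium iodide the differences went in both directions. In I against M1, 14 of the 36 genes were higher and 14 lower, 28 called in all. Among all tested genes 64.2% were called, 24.9% higher and 39.3% lower. None of these changes reached 2-fold, and among all tested genes 1.06% rose and 0.771% fell by that much. The median log2 fold change was −0.033 in the set and −0.065 over all tested genes. With RLE scaling 17 genes were higher and 9 lower, against 31.2% and 31.7% of all tested genes. Libraries of I and M1 did not overlap for 29 of the 36 genes, where 67.2% of all tested genes had no overlap. The comparison of I with M1 and that of M1 with Mock use the same M1 libraries, so their values are given side by side below and are not set against each other as evidence. Against Mock, which measures the state reached with iodide, 29 genes were lower in I and 4 higher, 33 called in all. Of all tested genes 86.8% were called in that comparison, 58.6% lower and 28.2% higher. With RLE scaling 21 genes were lower and 11 higher, against 42.9% and 42.7% of all tested genes. No overlap with Mock was seen for 34 of the 36 genes and for 87.1% of all tested genes.

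**Figure D2:**
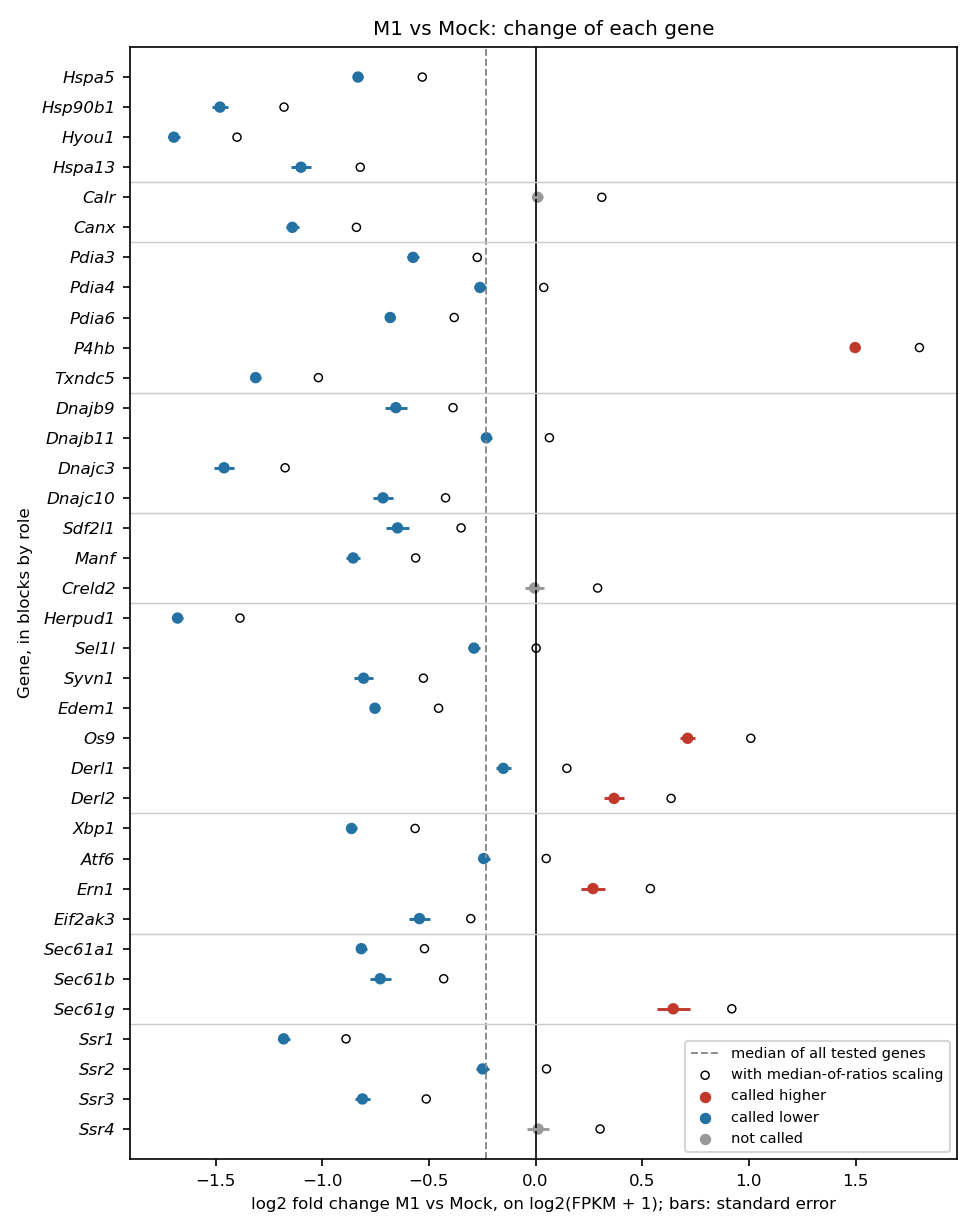
Log2 fold change of M1 against Mock on the log2(FPKM + 1) scale for the 36 genes, in the same blocks by role. Filled points with bars are the estimate and its standard error, coloured by the call, and open points are the estimate with RLE scaling. Hyou1 (−1.70) and Herpud1 (−1.68) lie farthest to the left and P4hb (1.50) farthest to the right, and the open points of Pdia4, Dnajb11, Creld2, Sel1l, Derl1, Atf6 and Ssr2 lie on the other side of 0.

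The chaperones of the HSP70 and HSP90 families fell in M1, 4 of 4 under both scalings. Of all tested genes 55.3% were lower, and 42.6% with RLE scaling. Hspa5 encodes BiP, the main HSP70 chaperone of the ER and the regulator that keeps the stress sensors inactive (ENSMUSG00000026864.13, chromosome 2, 34771970 to 34777547 on GRCm38). It stood at 602, 609 and 597 FPKM in the Mock libraries, 346, 327 and 341 in M1 and 318, 321 and 317 in I. The Mock libraries were all above the polarized ones, and I lay below M1 without overlap. The M1 mean was 0.561 of the Mock mean (log2 fold change −0.83 ± 0.025 SE, limma adjusted p = 8.29e-11). Against M1 the difference in I was small (log2 fold change −0.084 ± 0.025 SE, limma adjusted p = 0.0137), RLE scaling ended that call (adjusted p = 0.763), and quantile scaling turned its sign (0.044). Hsp90b1 encodes GRP94, the HSP90 of the ER, which folds Toll-like receptors and integrins (ENSMUSG00000020048.13, chromosome 10, 86690209 to 86705509). Its level was 242, 241 and 239 FPKM in the Mock libraries, 91.3, 81.0 and 84.8 in M1 and 85.6, 87.0 and 84.1 in I. M1 and I overlapped and both lay far under Mock. The M1 mean was 0.356 of the Mock mean (log2 fold change −1.48 ± 0.038 SE, limma adjusted p = 2.00e-11). No difference was called between I and M1 (log2 fold change −0.00096 ± 0.038 SE, limma adjusted p = 0.985), and none with RLE scaling, where the sign turned (0.073, adjusted p = 0.108).

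Hyou1 had the largest fall of the set. It encodes GRP170, a large HSP70-type chaperone that also acts as a nucleotide exchange factor for BiP (ENSMUSG00000032115.14, chromosome 9, 44379490 to 44392369). Hyou1 was at 79.3, 78.1 and 77.2 FPKM in the Mock libraries, 22.9, 24.3 and 23.2 in M1 and 23.7, 24.4 and 23.9 in I. The polarized libraries overlapped with each other and not with Mock. In M1 the mean was 0.300 of that in Mock (log2 fold change −1.70 ± 0.029 SE, limma adjusted p = 9.47e-13), and the fall held with RLE scaling (−1.40). I against M1 was not called (log2 fold change 0.032 ± 0.029 SE, limma adjusted p = 0.355), although RLE scaling gave a rise of 0.10 (adjusted p = 0.0112). Hspa13, a microsomal HSP70-type ATPase, was at 15.6, 15.9 and 14.8 FPKM in the Mock libraries, 6.84, 6.34 and 6.84 in M1 and 7.16, 7.75 and 7.25 in I. The 3 groups did not overlap, with Mock highest and M1 lowest. The rise with iodide was small (log2 fold change 0.13 ± 0.045 SE, limma adjusted p = 0.0277) and rested on single libraries, since the call was lost without M1 replicate 2 (0.10, adjusted p = 0.103), without I replicate 2 (0.10, adjusted p = 0.104) and with only the M1 and I libraries in the fit (0.13, adjusted p = 0.0503). With RLE scaling the rise was called (0.20, limma adjusted p = 0.00254).

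The lectin chaperones calnexin and calreticulin, which hold newly made glycoproteins while they fold, parted. Canx, the membrane-bound calnexin, was at 245, 240.2 and 242 FPKM in the Mock libraries, 115, 107 and 106 in M1 and 115, 116 and 113 in I. It fell in M1 to 0.452 of the Mock mean (log2 fold change −1.14 ± 0.031 SE, limma adjusted p = 3.29e-11), and I overlapped with M1. A difference between I and M1 was not called (log2 fold change 0.066 ± 0.031 SE, limma adjusted p = 0.0843), but it was with RLE scaling (0.14, adjusted p = 0.00284), with limma-voom (0.067, adjusted p = 0.0409) and without M1 replicate 1 (0.10, adjusted p = 0.00387). Calr, the soluble calreticulin of the lumen, was at 314, 323 and 315 FPKM in the Mock libraries, 324, 322 and 312 in M1 and 272, 275 and 269.9 in I. Mock and M1 overlapped, and all I libraries lay under both. M1 against Mock was not called (log2 fold change 0.0094 ± 0.024 SE, limma adjusted p = 0.719), a value that depends on the scaling, being 0.31 with RLE and −0.48, adjusted p = 2.33e-08 with quantile scaling. In I the level fell from that in M1 (log2 fold change −0.23 ± 0.024 SE, limma adjusted p = 1.14e-05), also with RLE scaling (−0.15). Both lectin genes hold an ERSE in the stretches shown above.

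Among the disulfide isomerases, which form and rearrange disulfide bonds in the ER, 4 of 5 fell in M1 and P4hb rose. With RLE scaling 3 fell, and of all tested genes 55.3% were lower (42.6% with RLE scaling). P4hb encodes the isomerase PDI, which is also the beta subunit of collagen prolyl 4-hydroxylase (ENSMUSG00000025130.11, chromosome 11, 120560298 to 120573253). Its level was 459, 475 and 457 FPKM in the Mock libraries, 1306, 1317 and 1314 in M1 and 1659.5, 1668 and 1651 in I. The 3 groups were far apart, with Mock lowest and I highest. The M1 mean was 2.83 times the Mock mean (log2 fold change 1.50 ± 0.024 SE, limma adjusted p = 6.93e-13), and the I mean was 1.26 times the M1 mean (log2 fold change 0.34 ± 0.024 SE, limma adjusted p = 6.61e-07). Pdia3 encodes ERp57, the partner of calnexin and calreticulin and a part of the MHC class I loading complex. It was at 315 ± 3.4, 211 ± 6.3 and 225 ± 3.7 FPKM (SD, n = 3 here and below) in Mock, M1 and I, lower in M1 (−0.57) and slightly higher in I than in M1 (log2 fold change 0.092 ± 0.027 SE, limma adjusted p = 0.0107). Txndc5, or ERp46, was at 52.3, 50.8 and 51.8 FPKM in the Mock libraries, 19.8, 20.6 and 20.3 in M1 and 18.6, 18.4 and 18.2 in I. M1 was 0.391 of Mock (log2 fold change −1.31 ± 0.027 SE, limma adjusted p = 4.32e-12), and the further fall in I (−0.13) was not called with RLE scaling (adjusted p = 0.113). Pdia6, which binds BiP clients, fell from 163 ± 3.4 to 101 ± 1.0 and 90.8 ± 0.72 FPKM, each step called under both scalings. Pdia4 went from 103 ± 1.8 to 85.9 ± 2.8 FPKM in M1, a log2 fold change of −0.26 that was not called with RLE scaling (0.038, adjusted p = 0.204). Its fall in I against M1 (−0.092) was not called with RLE (adjusted p = 0.589) or quantile scaling (−0.039, adjusted p = 0.294).

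The oxidase that recharges PDI is outside the count of 36 because the list gives its older symbol. Ero1a was at 48.4, 50.5 and 49.0 FPKM in the Mock libraries, 272, 255 and 263 in M1 and 298, 296 and 304 in I. All polarized libraries were above all Mock libraries, and I was above M1. Its M1 mean was 5.34 times that of Mock (log2 fold change 2.39 ± 0.028 SE, limma adjusted p = 7.82e-14) and its I mean 1.14 times that of M1 (log2 fold change 0.19 ± 0.028 SE, limma adjusted p = 0.000196). It was named after its values had been seen, as the gene behind a listed symbol. Ero1b, the other ER oxidase of this kind, went from 8.35 ± 0.42 to 4.90 ± 0.49 FPKM in M1 (−0.67) and 4.28 ± 0.091 in I, and was likewise named after its values had been seen.

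P4hb alone held 12.0% to 12.4% of the summed FPKM of the 36 genes in the Mock libraries, 37.3% to 37.8% in M1 and 44.1% to 44.3% in I. The sum over all 36 genes lay between 3803 and 3847 FPKM in the Mock libraries, between 3479 and 3499 in M1 and between 3725 and 3780.0 in I. Without P4hb the sums lay between 3346 and 3371 FPKM in the Mock libraries, between 2165 and 2193 in M1 and between 2074 and 2112 in I. Per length, Hspa5, the highest of the set in Mock, was passed by P4hb in both polarized groups.

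**Figure D3:**
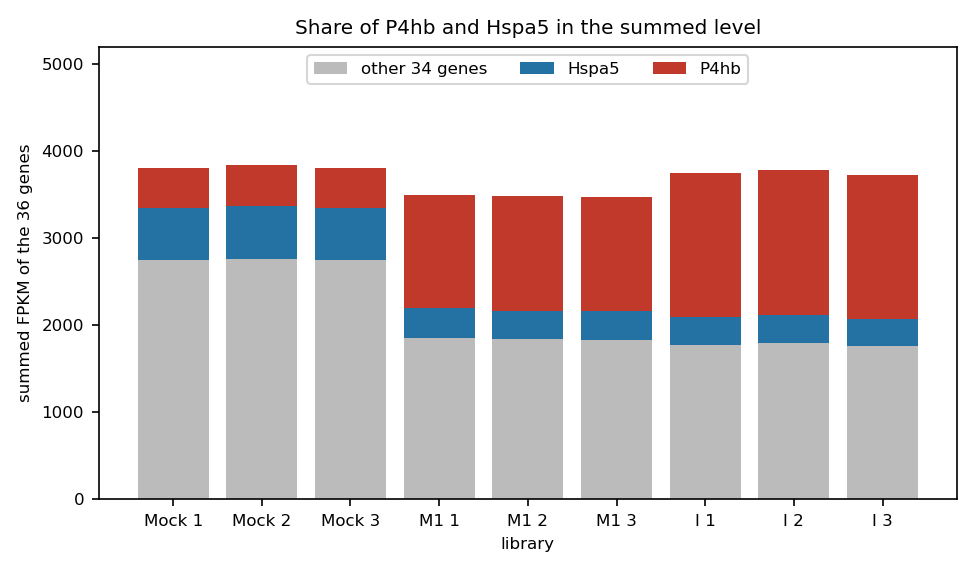
Summed FPKM of the 36 genes in each library as stacked bars that start at 0, split into P4hb, Hspa5 and the other 34 genes. In the deposited values the total lies between 3479 and 3847 FPKM, while the P4hb part grows from 457 to 475 FPKM in Mock to 1651 to 1668 in I. RLE scaling, not applied here, raises M1 and I against Mock and puts Mock lowest in the total.

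All 4 DnaJ cochaperones, which deliver clients to BiP and start its ATPase cycle, were lower in M1, 3 of them under both scalings. Of all tested genes 55.3% were lower, and 42.6% with RLE scaling. Dnajc3 encodes p58IPK, which also restrains the kinases PERK and PKR. It was at 26.5, 27.4 and 26.1 FPKM in the Mock libraries, 8.92, 9.18 and 9.07 in M1 and 10.3, 10.8 and 11.8 in I. The groups did not overlap, and M1 was lowest. Its M1 mean was 0.339 of the Mock mean (log2 fold change −1.46 ± 0.045 SE, limma adjusted p = 9.43e-11), and with iodide it rose to 1.21 times the M1 mean (log2 fold change 0.25 ± 0.045 SE, limma adjusted p = 0.000607). Dnajb9 encodes ERdj4, which holds IRE1 in its inactive state and takes part in ERAD. Its 9 values were 9.44, 9.68 and 9.49 FPKM in the Mock libraries, 5.64, 5.42 and 6.03 in M1 and 8.99, 10.2 and 9.01 in I. M1 lay under both other groups, and I overlapped with Mock. Dnajb9 fell in M1 (log2 fold change −0.65 ± 0.052 SE, limma adjusted p = 3.24e-07) and had the largest rise of the set with iodide, to 1.65 times the M1 mean (log2 fold change 0.63 ± 0.052 SE, limma adjusted p = 2.03e-06). I against Mock was not called (log2 fold change −0.020 ± 0.052 SE, limma adjusted p = 0.729), but it was a rise of 0.32 with RLE and 0.29, adjusted p = 0.000222 with quantile scaling.

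Dnajc10, or ERdj5, a disulfide reductase that prepares proteins for ERAD, had 40.3 ± 1.5, 24.2 ± 1.6 and 20.4 ± 0.47 FPKM in Mock, M1 and I and fell at both steps, each step called under both scalings. Dnajb11, or ERdj3, was at 49.8 ± 0.53, 42.3 ± 1.2 and 44.3 ± 0.65 FPKM. Its call of lower in M1 (−0.23) turned into a call of higher with RLE scaling (0.065, adjusted p = 0.0497). Its difference between I and M1 was not called (log2 fold change 0.065 ± 0.027 SE, limma adjusted p = 0.0545), while it was called without the filter on low values (0.065, adjusted p = 0.0499), with RLE scaling (0.14) and with quantile scaling (0.14, adjusted p = 0.000877).

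Of the 3 small lumenal proteins that respond to ER stress, 2 fell in M1 under both scalings. Of all tested genes 55.3% were lower, and 42.6% with RLE scaling. Sdf2l1, a subunit of the ERdj3 complex, was at 88.6 ± 0.94, 56.3 ± 4.7 and 53.7 ± 2.1 FPKM in Mock, M1 and I. It fell in M1 (−0.65), and M1 and I overlapped. I against M1 was not called (−0.066, adjusted p = 0.289) except without M1 replicate 1 (−0.13, adjusted p = 0.0151). Manf, a secreted neurotrophic factor that binds BiP, went from 40.0 ± 0.63 to 21.7 ± 0.57 FPKM in M1 (−0.86) and was at 20.6 ± 0.77 in I. That last difference was called only without I replicate 3 (−0.094, adjusted p = 0.0438). Creld2, a disulfide isomerase-like ER stress protein, was at 51.3, 50.1 and 52.8 FPKM in the Mock libraries, 48.9, 54.2 and 50.6 in M1 and 40.3, 43.0 and 38.4 in I. Mock and M1 overlapped, and I lay under both. M1 against Mock was not called (log2 fold change −0.0052 ± 0.047 SE, limma adjusted p = 0.92), with a rise under RLE scaling (0.29, adjusted p = 0.000174). In I it fell to 0.792 of the M1 mean (log2 fold change −0.33 ± 0.047 SE, limma adjusted p = 0.000108).

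The ERAD genes moved in both directions, 5 of 7 lower and 2 higher in M1, against 55.3% and 30.5% of all tested genes. With RLE scaling 3 were lower and 3 higher, against 42.6% and 43.1%. Herpud1, an ER membrane protein that gathers the degradation complex, had the largest fall of this role (ENSMUSG00000031770.16, chromosome 8, 94386438 to 94395377). It was at 48.6, 49.8 and 49.5 FPKM in the Mock libraries, 14.6, 14.9 and 14.7 in M1 and 17.1, 17.4 and 17.7 in I. The groups were separate, with M1 lowest, and the M1 mean was 0.298 of the Mock mean (log2 fold change −1.68 ± 0.027 SE, limma adjusted p = 7.00e-13). With iodide it rose to 1.18 times M1 (log2 fold change 0.23 ± 0.027 SE, limma adjusted p = 3.29e-05) and stayed under Mock (−1.45). Syvn1 encodes HRD1, the ubiquitin ligase of the complex. Its level was 16.7, 15.7 and 16.1 FPKM in the Mock libraries, 8.66, 8.53 and 9.28 in M1 and 10.6, 11.8 and 10.8 in I. M1 was lowest here too (log2 fold change −0.81 ± 0.046 SE, limma adjusted p = 1.56e-08), and the rise with iodide was to 1.25 times M1 (log2 fold change 0.30 ± 0.046 SE, limma adjusted p = 0.000206). Sel1l, the adaptor of HRD1, was at 30.5 ± 0.69, 24.8 ± 0.13 and 27.9 ± 0.68 FPKM. Its fall in M1 (−0.29) was not called with RLE scaling (0.0027, adjusted p = 0.933), whereas its rise in I against M1 (0.17) was called under both.

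Os9, a lectin that recognises the glycans of misfolded proteins, rose from 47.9 ± 2.1 to 79.1 ± 2.6 FPKM in M1 (log2 fold change 0.71 ± 0.036 SE, limma adjusted p = 5.17e-09) and to 87.6 ± 1.4 in I (0.14 against M1). Edem1, which trims those glycans, fell from 96.9 ± 1.5 to 57.1 ± 0.056 FPKM (−0.75). Its small difference in I (−0.080) was not called with RLE scaling (adjusted p = 0.828), took the other sign with quantile scaling (0.037, adjusted p = 0.315) and was lost without I replicate 1 (−0.069, adjusted p = 0.0516). Derl1 and Derl2 encode derlins, which form the path out of the ER membrane. Derl2 rose in M1 from 7.73 ± 0.16 to 10.3 ± 0.71 FPKM (0.37) and fell in I to 8.57 ± 0.069 (−0.24). Derl1 went from 75.1 ± 0.70 to 67.6 ± 3.2 and 58.3 ± 1.8 FPKM, with a fall in M1 (−0.15) that became a rise with RLE scaling (0.15, adjusted p = 0.00371) and a fall in I against M1 that was called under both scalings. A transcript of another gene, Gm35638, matches that of Derl1 at 95.4% identity over 652 bases and can share its reads.

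**Figure D4:**
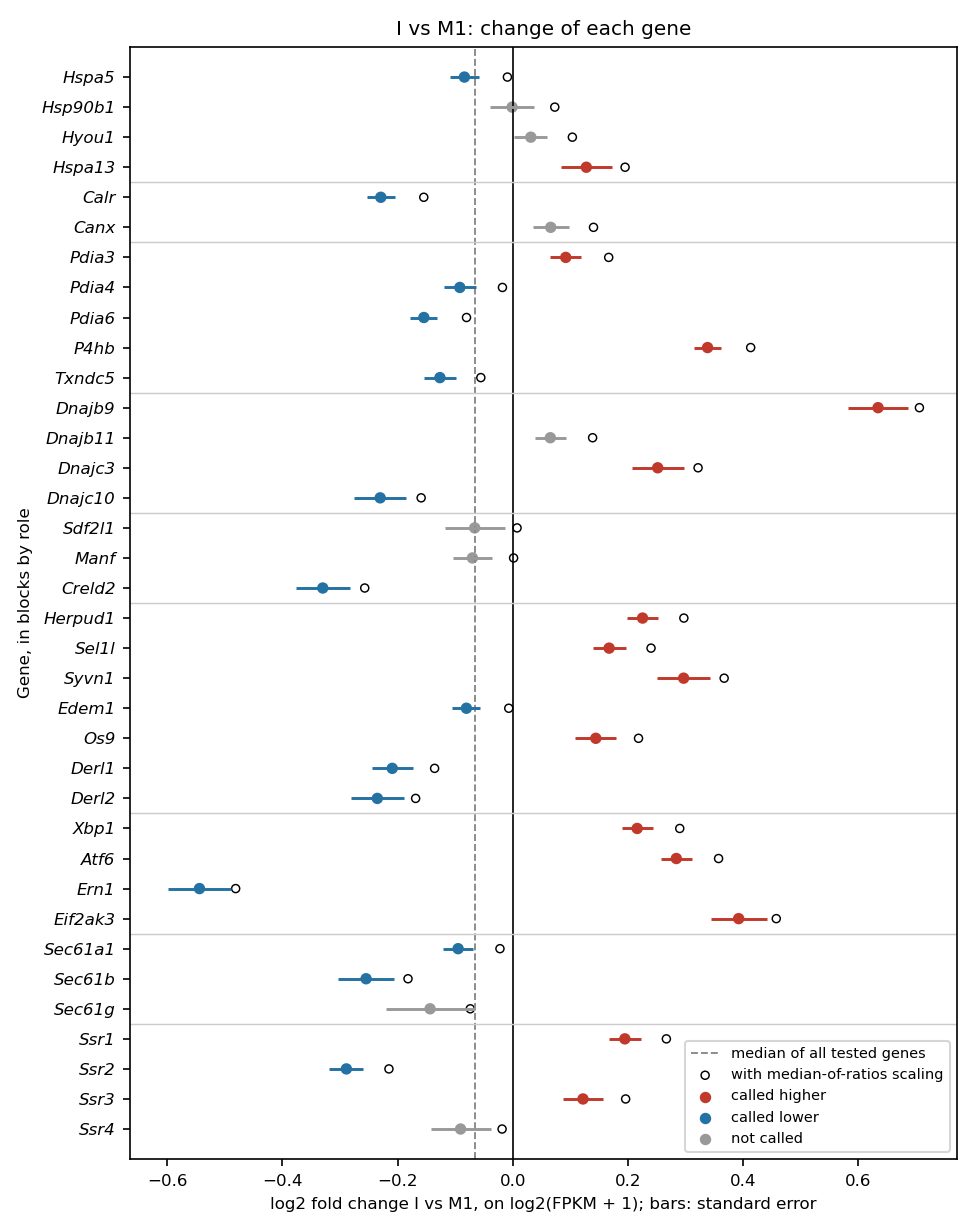
Log2 fold change of I against M1 on the log2(FPKM + 1) scale, drawn in the same way, with an axis that spans less than in the comparison of M1 with Mock. Dnajb9 (0.63) and Eif2ak3 (0.39) lie farthest to the right and Ern1 (−0.54) farthest to the left, and no estimate reaches 1 on this scale.

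The stress sensors and their factor differed in direction with iodide, with Eif2ak3, Atf6 and Xbp1 higher in I than in M1 and Ern1 lower. Ern1 encodes IRE1, the kinase and RNase that splices the Xbp1 mRNA (ENSMUSG00000020715.9, chromosome 11, 106394650 to 106487852). It was at 8.69, 8.25 and 7.75 FPKM in the Mock libraries, 9.92, 9.72 and 10.7 in M1 and 6.19, 6.99 and 6.70 in I. M1 was highest and I lowest, with no overlap between the groups. Ern1 rose in M1 to 1.23 times Mock (log2 fold change 0.27 ± 0.055 SE, limma adjusted p = 0.000783) and fell in I to 0.655 of M1 (log2 fold change −0.54 ± 0.055 SE, limma adjusted p = 9.26e-06). I against Mock was called lower, at −0.28, a direction that depends on the scaling, with 0.057 under RLE and 0.066 under quantile scaling. Eif2ak3 encodes PERK, the kinase that slows translation through eIF2 alpha. It was the lowest of the set per length, at 4.69, 4.46 and 4.83 FPKM in the Mock libraries, 2.69, 2.97 and 2.98 in M1 and 4.19, 3.98 and 4.11 in I. Gm43292, on the opposite strand, overlaps 485 exon bases of Eif2ak3 and may share reads with it. M1 lay under both other groups. The fall in M1 (log2 fold change −0.54 ± 0.049 SE, limma adjusted p = 8.49e-07) and the rise in I to 1.42 times M1 (log2 fold change 0.39 ± 0.049 SE, limma adjusted p = 4.09e-05) were called under both scalings. Against Mock, Eif2ak3 in I was called lower (−0.15, adjusted p = 0.0126), a call that was lost without Mock replicate 3 (−0.13, adjusted p = 0.0526) and turned with RLE (0.15) and quantile scaling (0.28, adjusted p = 0.000207).

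Atf6 encodes the membrane-bound factor that is cut in the Golgi and then enters the nucleus. Its level was 34.7, 34.2 and 33.6 FPKM in the Mock libraries, 29.0, 28.1 and 29.1 in M1 and 34.8, 35.8 and 35.0 in I. M1 lay under both other groups. The call of lower in M1 (log2 fold change −0.24 ± 0.027 SE, limma adjusted p = 5.64e-06) was not made with RLE scaling (0.050, adjusted p = 0.0951), whereas the rise in I was (log2 fold change 0.28 ± 0.027 SE, limma adjusted p = 5.60e-06, and 0.36 with RLE). I against Mock was not called (log2 fold change 0.042 ± 0.027 SE, limma adjusted p = 0.168) but was a rise with RLE (0.41) and with quantile scaling (0.13, adjusted p = 0.00118). Xbp1 encodes the factor whose spliced form drives chaperone and ERAD genes, and gene-level FPKM does not separate the spliced from the unspliced mRNA (ENSMUSG00000020484.18, chromosome 11, 5520659 to 5525893). Xbp1 was at 91.1, 93.6 and 92.4 FPKM in the Mock libraries, 50.4, 51.4 and 49.2 in M1 and 59.8, 58.9 and 57.2 in I. The groups did not overlap and M1 was lowest. Its M1 mean was 0.545 of Mock (log2 fold change −0.86 ± 0.027 SE, limma adjusted p = 1.04e-10), and its I mean was 1.17 times M1 (log2 fold change 0.22 ± 0.027 SE, limma adjusted p = 4.42e-05) and 0.635 of Mock (log2 fold change −0.65 ± 0.027 SE, limma adjusted p = 1.01e-09).

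**Figure D5:**
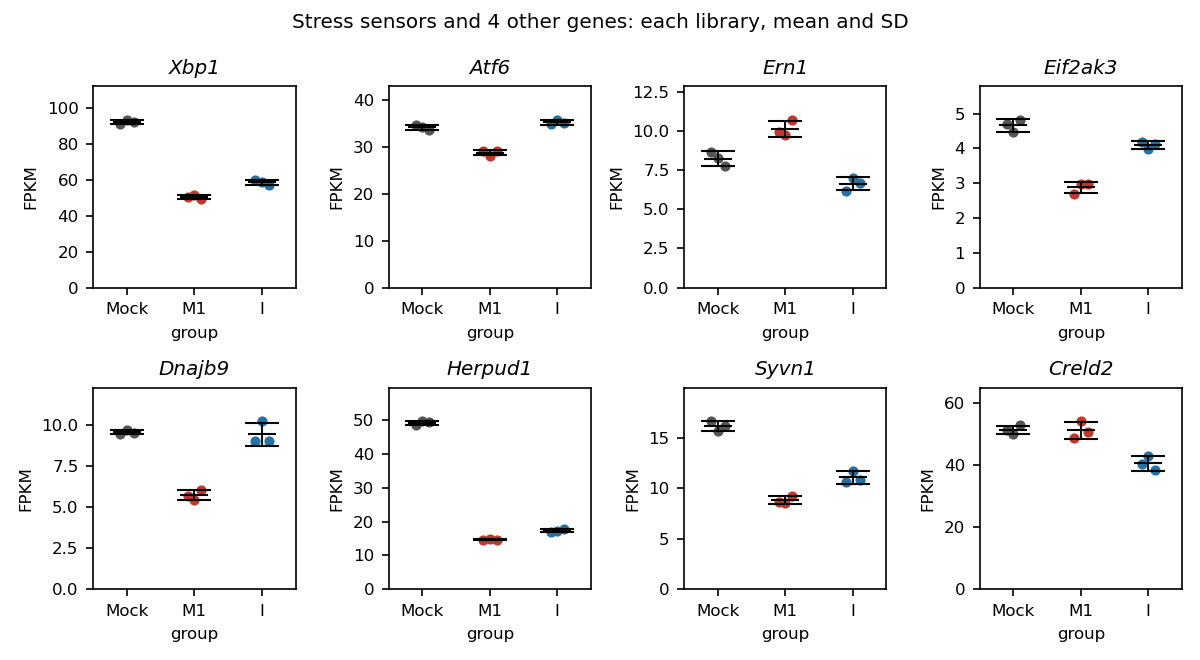
FPKM of Xbp1, Atf6, Ern1, Eif2ak3, Dnajb9, Herpud1, Syvn1 and Creld2 in each library (points), with the mean and SD of each group of 3 (bars), on axes that start at 0. In the deposited values M1 is lowest for Xbp1, Atf6, Eif2ak3, Dnajb9, Herpud1 and Syvn1, and I is lowest for Ern1 and Creld2.

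Of the 3 subunits of the Sec61 channel 2 fell in M1 and 1, Sec61g, rose, where 55.3% of all tested genes were lower and 30.5% higher. Sec61a1 encodes the pore-forming subunit. It was at 61.5, 60.6 and 62.3 FPKM in the Mock libraries, 34.1, 35.2 and 34.1 in M1 and 31.7, 32.4 and 32.5 in I. Mock was highest and M1 and I were close to each other without overlap. It fell in M1 (log2 fold change −0.82 ± 0.026 SE, limma adjusted p = 1.02e-10), and the small further difference in I (−0.095) was not called with RLE (adjusted p = 0.489) or quantile scaling (−0.024, adjusted p = 0.439). Sec61b, a small tail-anchored subunit, was at 70.0, 76.6 and 78.9 FPKM in the Mock libraries, 43.6, 47.3 and 44.0 in M1 and 37.2, 36.1 and 39.2 in I. It fell in M1 (log2 fold change −0.73 ± 0.049 SE, limma adjusted p = 6.85e-08) and again in I (log2 fold change −0.25 ± 0.049 SE, limma adjusted p = 0.000955), and the groups did not overlap. Sec61g, the other small subunit, was at 9.71 ± 1.1, 15.7 ± 0.72 and 14.1 ± 1.2 FPKM in Mock, M1 and I. Mock was lowest, and M1 and I overlapped. The rise in M1 (log2 fold change 0.65 ± 0.077 SE, limma adjusted p = 1.11e-05) is uncertain because Gm10177, a gene listed with 4.34 ± 0.45 FPKM in Mock and 7.37 ± 0.61 in M1, matches its transcript at 100.0% identity over 420 bases and can share its reads. I against M1 was not called for Sec61g (−0.14, adjusted p = 0.128) but was with limma-voom (−0.15, adjusted p = 0.0467). Sec61b has a near copy too, Gm10320, at 98.3% identity over 474 bases, which is not analysed here.

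In the TRAP complex 3 of 4 genes were lower in M1 (2 with RLE scaling), against 55.3% of all tested genes (42.6% with RLE scaling). Ssr1, its alpha subunit, was at 40.7, 40.9 and 40.2 FPKM in the Mock libraries, 17.0, 17.4 and 17.7 in M1 and 20.4, 19.9 and 19.7 in I. The groups were separate, with M1 lowest and I between M1 and Mock. The M1 mean was 0.427 of Mock (log2 fold change −1.18 ± 0.028 SE, limma adjusted p = 1.06e-11) and the I mean 1.15 times M1 (log2 fold change 0.20 ± 0.028 SE, limma adjusted p = 0.00011). Ssr3, the gamma subunit, took the same order at 124 ± 0.90, 70.2 ± 3.1 and 76.4 ± 2.7 FPKM, with a log2 fold change of −0.81 in M1 and 0.12 in I against M1, both called under both scalings. Ssr2, the beta subunit, was at 117, 120.3 and 120.4 FPKM in the Mock libraries, 97.6, 102 and 101 in M1 and 83.3, 83.4 and 78.9 in I, with Mock highest and I lowest. It fell in I (log2 fold change −0.29 ± 0.029 SE, limma adjusted p = 9.54e-06), while its fall in M1 (−0.25) was not called with RLE scaling (0.051, adjusted p = 0.137). Ssr4, the delta subunit, overlapped between all groups at 26.7 ± 1.3, 26.9 ± 1.2 and 25.2 ± 1.7 FPKM, and was not called in any of the 3 comparisons. RLE scaling gave it a rise in M1 (0.30, adjusted p = 0.000312) and in I against Mock (0.28), and without I replicate 1 it was lower in I than in M1 (−0.14, adjusted p = 0.0298) and than in Mock (−0.13, adjusted p = 0.0303).

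The 8 genes with an ERSE in the window and the 21 with a window and no ERSE were set side by side. In M1 6 of the 8 were lower, 0 higher and 2 not called, with log2 fold changes from −1.48 to 0.0094 and a median of −0.82. The 2 not called, Calr (0.31) and Creld2 (0.29), were called higher with RLE scaling. Of the 21 without it 15 were lower, 5 higher and 1 not called, from −1.68 to 1.50 with a median of −0.57. These 21 include Herpud1, at −1.68, and Dnajb11, which hold the related ERSE-II. Among the 21, Pdia4 and Sel1l were not called with RLE scaling, and Dnajb11 (0.065) and Ssr4 (0.30) were called higher. In I against Mock all 8 with an ERSE were lower, from −1.48 (Hsp90b1) to −0.22 (Calr), and of the other 21 there were 15 lower, 4 higher and 2 not called. The fall of Calr against Mock turned with RLE scaling (0.16), and that of Creld2 was not called with it (0.034, adjusted p = 0.524). In I against M1 the 8 were split, with 2 higher (Dnajc3 and Syvn1), 4 lower and 2 not called, and a median of −0.042. The other 21 had 10 higher, 7 lower and 4 not called, with a median of 0.065. With RLE scaling the fall of Hspa5 was not called and Canx was called higher (0.14). Among the 21, RLE scaling ended the calls of Pdia4, Txndc5 and Edem1 and added Dnajb11 as higher. Of all tested genes 55.3% were lower and 30.5% higher in M1, with a median of −0.23. In I against Mock 58.6% were lower and 28.2% higher, and in I against M1 39.3% were lower and 24.9% higher. The counts with and without an ERSE are over few genes, and the difference between the groups of genes was not tested.

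In I against Mock, Hyou1 (−1.66), Hsp90b1 (−1.48), Herpud1 (−1.45), Txndc5 (−1.44), Dnajc3 (−1.21) and Canx (−1.07) were at least 2-fold lower, 6 of 36 genes against 18% of all tested genes. P4hb was the 1 gene at least 2-fold higher, at 3.58 times Mock (log2 fold change 1.84 ± 0.024 SE, limma adjusted p = 1.37e-13), where 6.98% of all tested genes were. With RLE scaling 4 genes were at least 2-fold lower and 2, P4hb and Os9 (1.23), at least 2-fold higher, against 10.9% and 11.6% of all tested genes. Os9 (0.86), Sec61g (0.50) and Derl2 (0.13) were the others called higher. The call of Derl2 was lost without Mock replicate 2 (0.13, adjusted p = 0.0513) and without Mock replicate 3 (0.12, adjusted p = 0.0537). Those not called were Atf6, Dnajb9 and Ssr4. With RLE scaling 4 of the genes called lower in I became higher, namely Calr, Dnajb11 (0.20), Sel1l (0.24) and Eif2ak3, and 4 were not called, namely Pdia4, Creld2, Derl1 and Ern1.

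Other genes of the same pathways came from 10 lists with 163 distinct genes in the files, of which 160 were tested. In M1 85 of them were lower and 44 higher, and 31 were not called, with a median log2 fold change of −0.13. The shares, 53.1% lower and 27.5% higher, lie near the 55.3% and 30.5% of all tested genes. With RLE scaling 53 were lower and 83 higher, 33.1% and 51.9% against 42.6% and 43.1% of all tested genes, so that the balance of these lists turned with the scaling. In I against M1 38 were higher (23.8%), 72 lower (45.0%) and 50 not called, against 24.9% higher and 39.3% lower of all tested genes. With RLE scaling 49 were higher (30.6%) and 52 lower (32.5%), against 31.2% and 31.7% of all tested genes. The counts of single lists below are to be read against the same shares of all genes. The calnexin cycle was lower in M1 in 8 of 8 tested genes, and in 5 of 8 with RLE scaling, where 2 were higher. It held the glucosidase Mogs, from 47.2 ± 0.72 to 16.0 ± 1.3 FPKM, the cargo receptor Lman1, from 28.8 ± 0.96 to 10.8 ± 0.33 FPKM and 7.45 ± 0.43 in I, and the folding sensor Uggt1, from 16.4 ± 0.36 to 8.35 ± 0.083 FPKM.

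In the list of further disulfide isomerases 7 of 15 were lower and 5 higher in M1, and 4 and 9 with RLE scaling. The M1 counts in this paragraph stand against 55.3% lower and 30.5% higher among all tested genes (42.6% and 43.1% with RLE scaling). Tmx4, a membrane-bound thioredoxin-like protein, rose from 5.70 ± 0.11 to 30.9 ± 1.3 FPKM and to 45.3 ± 0.85 in I (log2 fold change 0.54 ± 0.035 SE, limma adjusted p = 3.35e-07). Pdia5 fell from 9.42 ± 0.21 to 2.28 ± 0.16 FPKM and Txndc11 from 8.17 ± 0.39 to 2.67 ± 0.12 FPKM. Among 20 BiP cofactors and other chaperones 9 were lower and 3 higher in M1 (7 and 10 with RLE scaling). Compared with M1, 12 of them were lower and 5 higher in I, where 39.3% and 24.9% of all tested genes were. The proline isomerase Fkbp11 went from 4.85 ± 0.63 to 0.278 ± 0.084 FPKM and was at 0.708 ± 0.17 in I, and the calcium-binding Rcn1 and Rcn2 fell in M1 (−1.12 and −1.02) and again in I (−0.27 and −0.30). In the 26 further ERAD genes 10 were higher and 10 lower in M1, and 18 and 3 with RLE scaling. The extraction ATPase Vcp fell from 80.6 ± 1.1 to 33.8 ± 1.3 FPKM, while the mannosidase-like Edem2 rose from 16.9 ± 0.55 to 30.2 ± 1.1 FPKM and Tmub1 from 4.96 ± 0.76 to 9.41 ± 0.30 FPKM.

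For targeting and entry, 4 of 8 genes of the signal recognition particle and its receptor were lower in M1 and 2 higher, and 3 and 4 with RLE scaling. Here and in the lists that follow, the shares of all tested genes were 55.3% lower and 30.5% higher (42.6% and 43.1% with RLE scaling). Both receptor subunits fell, Srpr from 92.8 ± 1.0 to 54.5 ± 0.97 FPKM and Srprb from 26.4 ± 0.26 to 15.5 ± 0.57 FPKM, as did the particle subunit Srp68 from 52.1 ± 0.66 to 33.9 ± 0.67 FPKM. Srprb rose with iodide (log2 fold change 0.17 ± 0.033 SE, limma adjusted p = 0.000997). Of 21 partners of the translocon 12 were lower and 4 higher in M1 (8 and 9 with RLE scaling), among them Sec62 from 22.7 ± 0.26 to 12.4 ± 0.75 FPKM, Mmgt1 from 11.6 ± 0.89 to 5.26 ± 0.29 FPKM and the tail-anchor receptor Get1 from 3.99 ± 0.37 to 0.626 ± 0.18 FPKM. In the oligosaccharyltransferase, which attaches the glycan, 7 of 12 were lower and 4 higher in M1, and 6 and 5 with RLE scaling. Its alternative oxidoreductase subunits moved in opposite directions in M1, Magt1 from 36.3 ± 0.72 to 11.0 ± 0.38 FPKM (log2 fold change −1.63 ± 0.033 SE, limma adjusted p = 3.72e-12) and Tusc3 from 21.3 ± 0.52 to 62.0 ± 3.8 FPKM (log2 fold change 1.50 ± 0.04 SE, limma adjusted p = 2.96e-11), each called in the same direction with RLE scaling. Rpn1 fell from 113 ± 1.5 to 65.2 ± 1.5 FPKM. Of 5 signal peptidase genes 2 were lower and 2 higher in M1 (1 and 4 with RLE scaling), with Spcs2 from 47.6 ± 1.1 to 24.9 ± 0.60 FPKM, Sec11c from 14.7 ± 0.11 to 27.1 ± 0.051 FPKM and Spcs1 from 34.5 ± 0.39 to 52.2 ± 0.55 FPKM.

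In the list on the signalling of the unfolded protein response 15 of 27 genes were lower and 11 higher in M1, and 9 and 14 with RLE scaling. For this list and the next, all tested genes had 55.3% lower and 30.5% higher (42.6% and 43.1% with RLE scaling). Atf3, a stress-induced repressor, rose from 59.8 ± 0.92 to 374 ± 7.7 FPKM and to 426 ± 6.0 in I. Chac1, a glutathione-degrading target of ATF4 and CHOP, fell from 21.4 ± 0.64 to 3.50 ± 0.72 FPKM in M1 and rose with iodide to 6.89 ± 0.83 (log2 fold change 0.82 ± 0.1 SE, limma adjusted p = 4.55e-05). Eif2ak2, which encodes the eIF2 alpha kinase PKR, fell from 81.4 ± 0.90 to 24.3 ± 1.7 FPKM and rose with iodide to 41.5 ± 0.86 (log2 fold change 0.75 ± 0.042 SE, limma adjusted p = 1.02e-07). For export from the ER, 12 of 19 genes of the COPII coat and of KDEL retrieval were lower in M1 and 3 higher, and 8 and 8 with RLE scaling. The coat subunits Sec24d and Sec31a fell, from 18.7 ± 0.58 to 6.44 ± 0.28 FPKM and from 30.1 ± 0.66 to 13.7 ± 0.80 FPKM, and so did the SNARE gene Bet1 (log2 fold change −1.18 ± 0.065 SE, limma adjusted p = 1.20e-08). Sec24d rose in I to 9.12 ± 0.27 (log2 fold change 0.45 ± 0.041 SE, limma adjusted p = 4.25e-06).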

How the data were processed

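The authors deposited 1 table of FPKM per library, with no unit in its header. The unit was read from the values: multiplied by GENCODE vM21 exon length they fell on whole fragments, within 0.05, for 98.4% to 98.6% of values. The submitters' processing notes name GRCm38, fastp 0.20.1, HISAT2 2.2.1 and featureCounts 2.0.1. The sources used here give neither settings nor strand use, so overlapping genes on opposite strands, such as the antisense pseudogene 1810014B01Rik at Hsp90b1, may share reads. Such overlaps also include Gm43292 at Eif2ak3, Gm44170 at Sec61a1, and Gm31834 and Bmp6 at Txndc5. Rows at 0 in a library are not in the files. Genes with at least 0.5 FPKM in at least 3 libraries (11156 of 12474 rows) were tested with limma 3.58.1 in R 4.3.3 on log2(FPKM + 1). The fit had 1 term per group over all 9 libraries and an intensity trend. It was also run on simulated counts in which few genes changed, in I alone, which does not test the scaling. Genes with full values are the 10 largest called changes in M1, the 8 largest in I against M1, the sensors and 5 representatives; up to 3 genes per further list were named by size. Members, filter and lists were chosen with earlier results of these data known. Alternatives were RLE and quantile scaling, a pseudocount of 0.1, no filter, only the compared groups, the replicate number as a block, limma-voom on recovered fragments, and leaving out each library. Near copies were sought with blastn 2.17.0 among GENCODE transcripts.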

Additional observations from a re-analysis of the deposited data

How the results depend on the processing

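Scaling was the choice that mattered most. With RLE scaling the genes of the set called higher in M1 against Mock went from 5 to 10, those lower in I against M1 from 14 to 9, and those higher in I against Mock from 4 to 11 (7 with quantile scaling); all genes called higher in I against Mock went from 3146 to 4762. Signs turned with RLE scaling in M1 against Mock, to log2 fold changes of Pdia4 0.038, Dnajb11 0.065, Creld2 0.29, Sel1l 0.0027, Derl1 0.15, Atf6 0.050 and Ssr2 0.051, and in I against Mock, to Calr 0.16, Pdia4 0.021, Dnajb9 0.32, Dnajb11 0.20, Creld2 0.034, Sel1l 0.24, Derl1 0.011, Ern1 0.057, Eif2ak3 0.15 and Ssr4 0.28. In I against M1 they turned for Hsp90b1 (0.073), Sdf2l1 (0.0076) and Manf (0.0016), which were not called under either scaling. With quantile scaling they turned for Calr −0.48 in M1 against Mock, Hspa5 0.044 and Edem1 0.037 in I against M1, and Dnajb9 0.29, Ern1 0.066 and Eif2ak3 0.28 in I against Mock. RLE scaling multiplies all genes of a library by 1 factor; for quantile scaling the cause was not tested. With a pseudocount of 0.1, no filter, only the compared groups, the block and limma-voom no count moved by over 1.5 times.

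Leaving out 1 library gave 28 lower and 5 higher genes of the set in M1 against Mock each time, 14 to 15 lower and 13 to 15 higher in I against M1, and 28 to 30 lower and 3 to 4 higher in I against Mock. Over all genes it gave 6044 to 6089 lower and 3289 to 3366 higher in M1 against Mock, 4121 to 4183 and 2539 to 2659 in I against M1, and 6418 to 6454 and 3076 to 3094 in I against Mock. The groups share replicate numbers. Deviations of same-numbered libraries from their group means correlated at r from −0.12 to 0.047 across genes, and not every library was closest to its own number. With 3 libraries per group this cannot decide whether same-numbered libraries were prepared together. With the replicate block the set had 28 lower and 5 higher genes in M1 against Mock, 14 and 14 in I against M1 and 29 and 4 in I against Mock, and over all genes 6152 and 3396, 4319 and 2713, and 6515 and 3148. A single fragment over 1 kb equals 0.039 to 0.057 FPKM, and Dnajb9 had 273 fragments in its lowest library. The part of counting error in the spread among libraries was not tested.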

Other observations

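Besides the 8 genes of the set, 6 tested genes hold an ERSE in their promoter window, and they were named for that after the search. Alg12, a mannosyltransferase of glycan assembly in the ER, was at 11.2 FPKM in Mock and 12.7 in M1, and was lower in I (−0.31 against M1). Ero1b, given above, was lower in both steps, the second not called with RLE scaling. Hnrnpa3, which encodes an RNA-binding protein, went from 31.4 to 8.41 FPKM in M1 (−1.78). Pan2, a subunit of a deadenylase, went from 2.79 to 1.87 FPKM in M1. Gm6566 and Spats2l were under 1 FPKM in every group mean.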
